A study of Mus musculus with 27 samples.

Results

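The KLRG1 gate was compared within PD1- tumour CD8+ T cells from MC38 tumours under the treatment labelled Tri, with 4 libraries of PD1-KLRG1+ cells and 5 of PD1-KLRG1- cells. These 9 libraries were chosen by the gates and the treatment in the sample titles, out of 27 in the series. MC38 is a mouse colon adenocarcinoma line. The series abbreviates Tri as TCT, a combined treatment whose components the sources used here do not give, and Iso stands for isotype. Both populations came from digested tumours, were sorted on viability, on CD45, CD8 and CD3, and on KLRG1 and PD-1, and had in common the Tri treatment and the absence of PD-1 at the surface, so that the KLRG1 gate was the only labelled difference. For comparison, Tri PD1+ cells were sorted by KLRG1 in the same way (5 libraries each), as were PD1- cells of Iso mice (4 libraries each). The labels do not say whether a library is 1 mouse or a pool, how many cells it holds, the age of the mice or whether libraries with the same number share a mouse, so p-values measure the spread between these samples only.

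KLRG1 is an inhibitory lectin-like receptor that binds cadherins and marks CD8+ T cells far along effector differentiation. In acute infection, KLRG1+ CD8+ cells express granzymes, the transcription factors T-bet and ZEB2 and receptors for circulation in blood, whereas KLRG1- cells include memory precursors that keep TCF-1 and CCR7 and can return to lymph nodes. PD-1 is induced by antigen receptor signalling, so PD1- cells in a tumour hold few of the chronically stimulated T cells.

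Library totals were 8586184 to 11989076 counts in the KLRG1+ group and 11594027 to 16709139 in the KLRG1- group. Levels are given as CPM (counts divided by the library total, scaled by TMM and by 1e6). The CD8 T cell genes checked (Cd3e, Cd3d, Cd8a, Cd8b1, Trac and Ptprc) were between 647 and 3176 CPM in all 9 libraries. KLRG1- replicate 5 stood apart: its Spearman correlation with the other 8 libraries was 0.72 to 0.782, and 3.43% of 6969 well-expressed genes had no count in it against at most 0.761% in any other of the 9. Values without it are given where leaving it out moved a count or a median markedly.

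The transcript of the sorting marker followed the gate. Klrg1 (ENSMUSG00000030114) was at 222, 263, 349 and 184 CPM in the KLRG1+ libraries and at 40, 20.5, 8.61, 10.4 and 18.7 in the KLRG1- libraries. The groups did not overlap, and the ratio of their means was 12.9. Since this gene defines the groups, its difference (log2 fold change 3.65 ± 0.73, SE, adjusted p = 0.222) checks the labels only. Pdcd1, the gene of PD-1, was at 170, 46.2, 69.6 and 80.3 CPM in KLRG1+ and 151, 76.6, 152, 110.5 and 105 in KLRG1- libraries, which overlapped.

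Across 14059 genes tested with edgeR's quasi-likelihood test, no gene had an adjusted p under 0.05 in either direction (0% of genes tested higher and 0% lower). At an unadjusted p under 0.05 there were 675 of 14059 genes (236 higher, 439 lower). That is less than the share of 0.05 that tests of genes without any difference would give. The smallest adjusted p, 0.222, was that of Klrg1. DESeq2 called 201 genes (44 higher, 157 lower) and limma-voom with sample weights called 30 (18 higher, 12 lower), with 17 in both. Besides Klrg1, those higher in KLRG1+ cells were Gzmb, S1pr5, Zeb2, Flna, Dusp5, Osbpl3, Dscam and Map3k15, and those lower were Ltb, Tgfbi, Styk1, Insr, Gga2, Ppm1l, Rflnb and Gm37510 (named after the overlap was seen). Many DESeq2 calls had extreme log2 fold changes that are no estimate of size, such as -24.9 for Il1r2 and 30.3 for Hgfac. Of the shared genes, Tgfbi (-25.7), Gga2 (-23.6) and Map3k15 (24.0) were among them, whereas Gzmb was at 0.74. Because no gene passed the main test, genes are described below by their values and by whether the libraries of the groups overlap. Every KLRG1+ library was above every KLRG1- library for 129 genes (0.918% of those tested) and below for 124 (0.882%). In random order, 4 and 5 libraries would lie apart in either direction with a probability of 0.0159. The 2 shares together were little above that value. Without KLRG1- replicate 5 the counts were 211 (1.5%) and 248 (1.76%), where the probability for 4 and 4 libraries is 0.0286. Lack of overlap in a single gene therefore describes its values and is no test of a difference.

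Granzymes A and B, proteases that killer T cells deliver into target cells, were higher in all KLRG1+ libraries. Gzmb (ENSMUSG00000015437) was at 3362, 4102, 3231 and 2809 CPM in the KLRG1+ libraries and at 2146, 2285, 1955, 1556 and 1857 in the KLRG1- libraries. The lowest KLRG1+ library lay above the highest KLRG1- library, and the means were 3376 ± 538 and 1959.7 ± 280.3 (SD). The log2 fold change was 0.78 ± 0.19 (SE, adjusted p = 0.6), and 4 of 23 alternative fits called it (adjusted p between 0.000696 and 1). Gzma (ENSMUSG00000023132) was at 1261, 2589, 1681 and 880.3 CPM against 640, 472, 503, 321 and 371. Here too the groups did not overlap, and the ratio of means was 3.47, with a log2 fold change of 1.49 ± 0.70 (adjusted p = 1, called in 2 of 23 alternatives, between 1.04e-06 and 1).

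The rest of the killing machinery was less one-sided. Of 20 granzyme and granule genes tested, 12 had a positive log2 fold change (median 0.09, against -0.01 and 48.9% positive for all genes tested). Without KLRG1- replicate 5, 10 of 20 were positive with a median of 0.03. Gzma and Gzmb were the 2 of 20 whose groups did not overlap, where 0.918% of all genes tested lay above. Gzmk, the granzyme of less differentiated effector cells, was at 871, 986, 892 and 667 CPM against 793, 636, 537, 463 and 291, with overlap between the groups. Prf1, the pore-forming perforin, was at 334, 163, 219 and 316 against 257, 221, 200, 247 and 149.9, also overlapping. Serpinb9, an inhibitor that protects the killer cell from its own granzyme B, was at 484, 346, 441 and 425 CPM against 286, 249, 264, 268 and 365, where KLRG1- replicate 5 lay above KLRG1+ replicate 2. Gzmf lay the other way, with 0, 0, 0 and 2.65 CPM in KLRG1+ and 3.09, 1.19, 28.1, 2.11 and 53.7 in KLRG1- libraries, mostly from KLRG1- replicates 3 and 5. Ccl5, a chemokine stored by effector and memory CD8+ cells, was at 2157, 3440, 2134 and 1484 CPM against 1901, 928, 1542, 849.8 and 384 (log2 fold change 0.96 ± 0.28, adjusted p = 0.887, with overlap).

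Ccr7 (ENSMUSG00000037944), the receptor that guides T cells into lymph nodes, was at 7.80, 5.18, 3.31 and 7.71 CPM in the KLRG1+ libraries and 68.7, 61.5, 122, 62.8 and 67.9 in the KLRG1- libraries. The groups lay far apart, with means that differed 12.8-fold, and only KLRG1- replicate 3 stood out from its group. The log2 fold change was -3.69 ± 0.99 (SE, adjusted p = 0.832), and Ccr7 was called in 6 of 23 alternatives (adjusted p between 1.05e-09 and 1), among them the fits to the 9 libraries alone and to the 19 Tri libraries alone.

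Tcf7 (ENSMUSG00000000782), the gene of TCF-1, which maintains stem-like and memory T cells, was at 128, 99.99, 103 and 126 CPM against 230.4, 168, 239, 235 and 516. Id3 (ENSMUSG00000007872), an inhibitor of E proteins found in memory precursors, was at 12.2, 5.55, 11.6 and 7.48 against 51.3, 20.6, 20.1, 33.9 and 69.5. In both genes the groups did not overlap, and the ratio of the KLRG1- to the KLRG1+ mean was 2.43 for Tcf7 and 4.24 for Id3. The high Tcf7 level of KLRG1- replicate 5 carried part of its mean, and without that library the mean was 218 ± 33.7 CPM (SD, n = 4).

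Of the 20 stem-like and memory genes tested, 16 had a negative log2 fold change (median -0.31). Members that included Tcf7, Ccr7, Id3 and Nsg2 did not overlap between the groups, with or without KLRG1- replicate 5. They were 5 of 20 either way, where 0.882% of all genes tested lay below, and 1.76% without that library. Not all memory genes separated the groups. Il7r, the interleukin-7 receptor of long-lived T cells, was at 83.1, 267, 89.2 and 118 CPM against 169, 201, 133, 207 and 167. Its log2 fold change was -0.38, and only KLRG1+ replicate 2 lay above the lowest KLRG1- library. Lef1, the partner factor of TCF-1, had means of 167 ± 55.3 and 182 ± 30.7 CPM (SD, n = 4 and 5). Slamf6, a surface marker of stem-like cells, had the higher mean in KLRG1+ cells, with 140 ± 19.9 and 124 ± 44.8 CPM. Dapl1, outside the lists and often listed with naive and memory T cell genes, was at 1.91, 2.10, 3.21 and 0.576 CPM against 22.1, 6.67, 22.4, 9.89 and 20.02, without overlap.

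**Figure D1:**
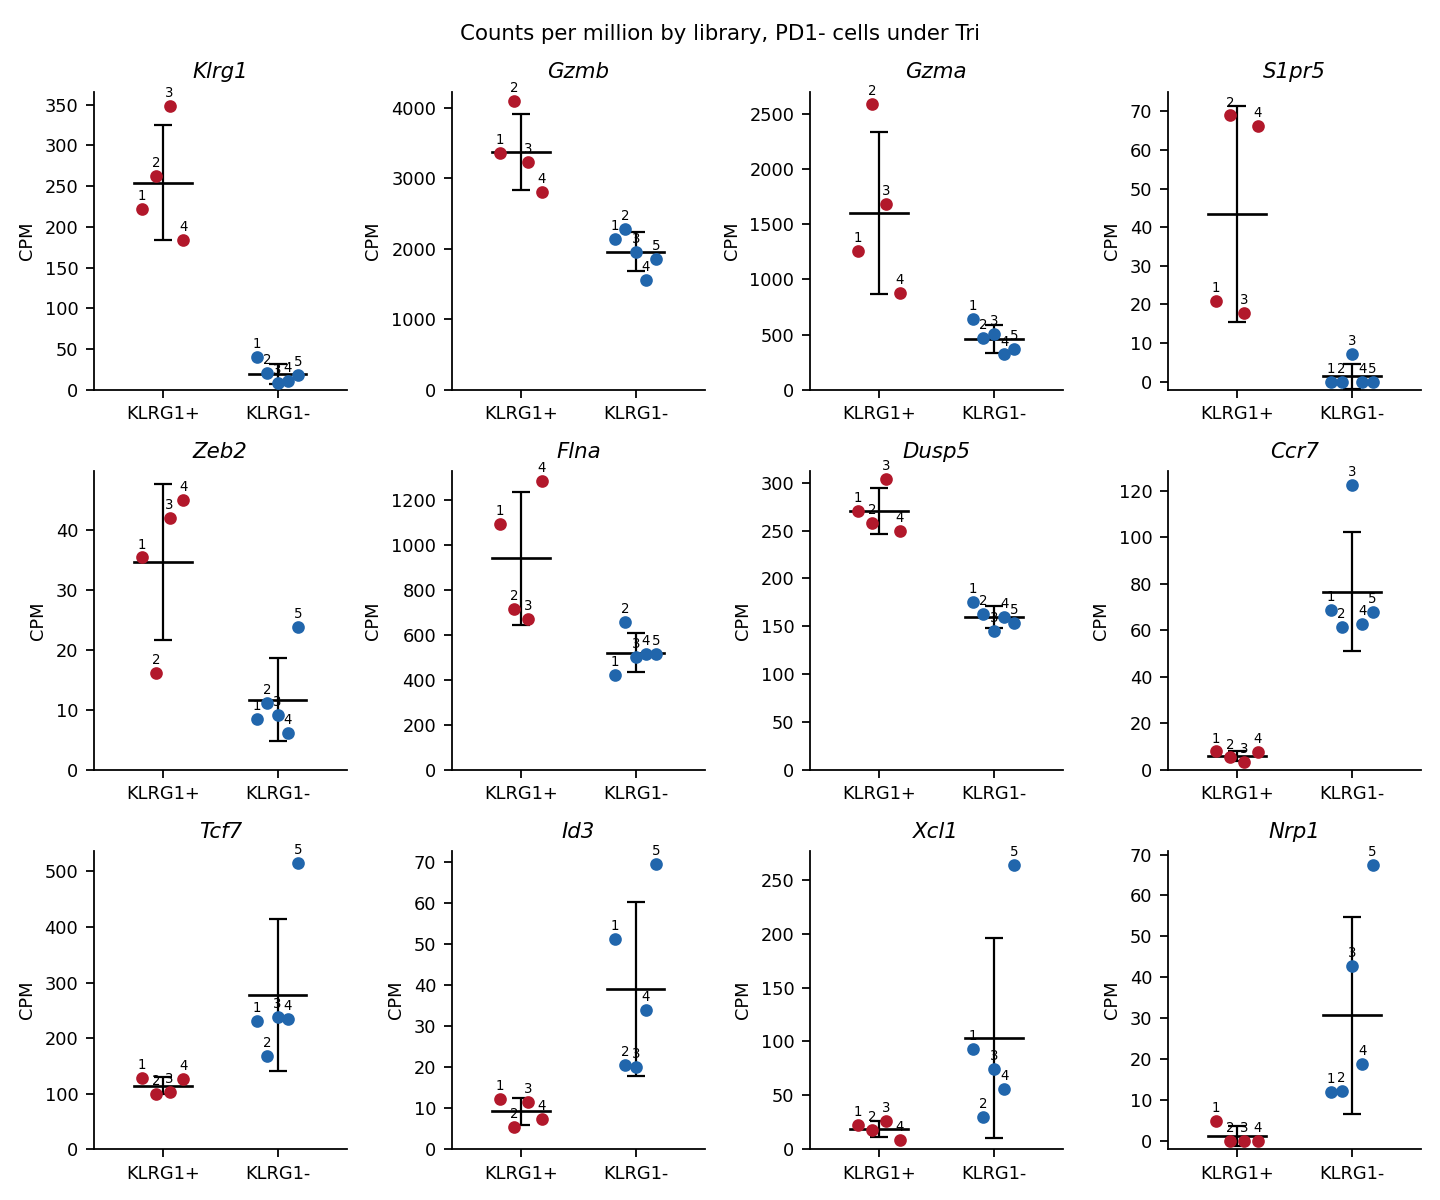
CPM (vertical axis, linear) of 12 genes in each PD1-KLRG1+ (red) and PD1-KLRG1- (blue) library under Tri; numbers are replicates, horizontal lines are means and bars are SD. Klrg1, Gzmb, Gzma, S1pr5, Flna and Dusp5 lie higher in every KLRG1+ library, Ccr7, Tcf7, Id3, Xcl1 and Nrp1 lie lower, and Zeb2 separates the groups except for KLRG1- replicate 5.

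Receptors of circulation lay in both directions. S1pr5 (ENSMUSG00000045087), a sphingosine-1-phosphate receptor of circulating effector and NK cells, was at 20.9, 68.9, 17.8 and 66.3 CPM in the KLRG1+ libraries and at 0, 0, 7.28, 0 and 0 in the KLRG1- libraries. Counts were thus found in all KLRG1+ libraries and in 1 of 5 KLRG1- libraries (log2 fold change 5.66 ± 1.63, adjusted p = 0.987, called in 4 of 23 alternatives, between 0.000169 and 1). Itgam and Itgax, integrin subunits that activated CD8+ T cells share with myeloid cells, were higher without overlap, at 68.3, 55.5, 55.3 and 89.7 CPM against 12.6, 23.6, 25.6, 0.364 and 0 for Itgam and at 348, 279, 292 and 316 against 235, 185, 269.8, 179.9 and 135 for Itgax. Klf2, the factor that drives S1pr1, was at 226, 299, 211 and 230.2 against 183, 108, 241, 117 and 108, where KLRG1- replicate 3 reached the KLRG1+ range. Of 16 egress and circulation genes, 11 were positive (median 0.26). S1pr5, Itgam and Itgax were above without overlap, and Ccr7 was among those below. Of all genes tested, 0.918% lay above and 0.882% below. S1pr1 itself, the main exit receptor of lymphocytes, had means of 302 ± 98.0 and 321 ± 28.9 CPM.

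Of 14 genes of tissue retention, 9 had a negative log2 fold change (median -0.38, against -0.01 for all genes tested) and none was called. Xcl1 (ENSMUSG00000026573), a chemokine that attracts cross-presenting dendritic cells, was at 22.7, 18.2, 26.4 and 8.63 CPM against 93.3, 29.7, 74.8, 55.7 and 264. Cxcr6, the receptor that keeps T cells in tissues, was at 1340, 1079, 1224 and 1329 CPM against 1668, 1659, 1512, 1653 and 1453, a small difference (log2 fold change -0.33 ± 0.19) that left the groups apart. Cdh1, the gene of E-cadherin, to which KLRG1 itself binds, was at 50.4, 32.3, 35.6 and 29.2 CPM against 97.1, 113, 66.7, 120 and 91.4. These were the 3 of 14 tested members whose groups did not overlap, where 0.882% of all genes tested lay below. Ahr, Ccr9, Cd69, Itga1 and Rgs1 had a positive log2 fold change. Itgae, the integrin CD103 that binds E-cadherin, was at 1.13, 0, 0 and 5.53 CPM against 9.55, 11.1, 11.8, 0 and 135, and its KLRG1- mean came mostly from replicate 5. Cd69 was near equal, at 374 ± 45.4 and 335 ± 94.5 CPM. The mean of log2(CPM + 1) over the 14 genes was 4.72 to 5.22 in KLRG1+ and 5.26 to 5.80 in KLRG1- libraries.

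Interferon-stimulated genes are switched on when interferons activate factors that bind a repeated GAAA element, the ISRE. In this comparison all 20 genes of that list had a negative log2 fold change (median -0.49, against -0.01 for all genes tested). Ifit1, Ifit3 and Irf7 were lower without overlap between the groups. They were 3 of 20 members, where 0.882% of all genes tested lay below. The bases upstream of these 3 genes are shown because they are the members that separated the groups. Each run covers the 150 bases before the start site from RefSeq (GRCm38.p6), 5′ to 3′ on the strand of the gene, with matches to GAAA NN GAAA (N is any base, written here with spaces) on either strand in capitals. A match on the other strand reads TTTC NN TTTC.
Ifit1 (chr19:34640739-34640888, plus strand): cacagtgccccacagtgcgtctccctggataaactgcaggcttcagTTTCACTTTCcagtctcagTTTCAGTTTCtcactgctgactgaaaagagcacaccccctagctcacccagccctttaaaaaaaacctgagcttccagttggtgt
Ifit3 (chr19:34583379-34583528, plus strand): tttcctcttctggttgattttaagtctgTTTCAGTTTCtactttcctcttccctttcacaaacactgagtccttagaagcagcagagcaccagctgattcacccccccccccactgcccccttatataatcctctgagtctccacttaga
Irf7 (chr7:141266425-141266574, minus strand): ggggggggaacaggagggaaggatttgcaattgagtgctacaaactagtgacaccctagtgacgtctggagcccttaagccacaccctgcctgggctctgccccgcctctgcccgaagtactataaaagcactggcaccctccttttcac
Ifit1 held 2 matches, starting 104 and 85 bases before its start site, and Ifit3 held 1, starting 122 bases before it. Irf7 had no match to these letters in this window. Of 15 list members with a promoter sequence, 8 held at least 1 match (Bst2, Gbp2, Ifi203, Ifit1, Ifit3, Isg15, Oas1a and Rsad2). Over the same 150 bases, 1.59% of all 32851 promoters held one. The list count is of genes with a match in any of their promoters, whereas the percentage is of single promoters. Matching letters describe the sequence and do not show that a factor bound there.

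Ifit1, a sensor of foreign RNA caps, was at 217, 243, 129.9 and 148 CPM in the KLRG1+ libraries and 303, 369, 301, 329.5 and 346 in the KLRG1- libraries. Ifit3, which binds IFIT1, was at 309, 429, 304 and 368 against 487, 622, 568, 584 and 446. Irf7, a factor that amplifies interferon production, was at 333, 295, 276 and 327 against 498, 468, 369, 459 and 660.3. The differences were of moderate size, with ratios of the KLRG1- to the KLRG1+ mean of 1.79, 1.54 and 1.59, and log2 fold changes of -0.78 ± 0.35, -0.60 ± 0.37 and -0.63 ± 0.26 (SE, adjusted p = 1, 1 and 0.993). None of the 3 was called in any of 23 alternatives, where the smallest adjusted p was 0.154 for Ifit1.

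The other members overlapped between the groups. Isg20, an exonuclease, was at 276, 338, 297 and 194 CPM against 444, 391, 490.1, 284 and 421. Usp18, Gbp2 and Ifit2 were close to 0 on the log2 scale, at -0.04, -0.03 and -0.0019. Outside the list, the membrane proteins Ifitm1 and Ifitm3, also induced by interferon and chosen after their values were seen, were at 15.7, 38.3, 48 and 16.6 against 134, 82.9, 93.5, 57.1 and 93.4 CPM and at 22.9, 36, 48.3 and 28.1 against 68.6, 103, 110, 51.8 and 72.6, both without overlap. As a mean of log2(CPM + 1) over the 20 genes, the KLRG1+ libraries were at 7.02 to 7.24 and the KLRG1- libraries at 7.41 to 7.74. The median log2 fold change ran from -0.59 to -0.36 over 23 alternatives, with at most 4 of 20 members positive.

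Proliferation genes lay on the higher side. All 24 members had a positive log2 fold change (median 0.56). Mcm2, a subunit of the helicase that opens DNA for replication, was at 219, 215, 226 and 241 CPM in the KLRG1+ libraries and 141, 125, 155, 114 and 151 in the KLRG1- libraries. Rrm2, the subunit of ribonucleotide reductase that makes DNA precursors, was at 335, 223, 279 and 220.3 against 106, 154, 97.2, 212 and 198. These 2 of 24 genes did not overlap between the groups, where 0.918% of all genes tested lay above. No member was called in the main fit. With sample weights, limma-voom called members that included Top2a (adjusted p = 0.0259) and Birc5 (adjusted p = 0.0409). That fit was the only 1 of 23 alternatives that called Top2a.

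KLRG1- replicate 5 differed from its group in the proliferation list. Top2a, the topoisomerase of dividing cells, was at 199, 204, 249 and 183 CPM against 79.9, 106, 70.7, 93.9 and 296, so that 4 of 5 KLRG1- libraries lay below all KLRG1+ libraries while replicate 5 lay above them all. Without KLRG1- replicate 5, 8 of 24 members did not overlap, where 1.5% of all genes tested lay above, and the median was 0.74. The list did not behave alike in the 2 series of library names, which differ in an RNA-number suffix in the descriptions: the median was 0.70 in the libraries without it (3 against 3, 24 of 24 positive) and 0.09 in those with it (1 against 2, 13 of 24 positive). Mki67, the gene of the Ki-67 antigen, was at 125, 119.6, 149 and 93.4 CPM against 67.6, 65.7, 87.1, 130.4 and 159.9 and was near 0 on the log2 scale (0.13 ± 0.74). Chosen after their values were seen, Nusap1, a mitotic spindle protein, was at 107, 70.9, 112 and 41.2 against 28.1, 36.5, 14.3, 19.7 and 25.04 CPM, and E2f2, a factor that activates S phase genes, at 63.7, 99, 90.8 and 71.8 against 31.3, 35.1, 27.1, 47.6 and 5.85, both without overlap.

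**Figure D2:**
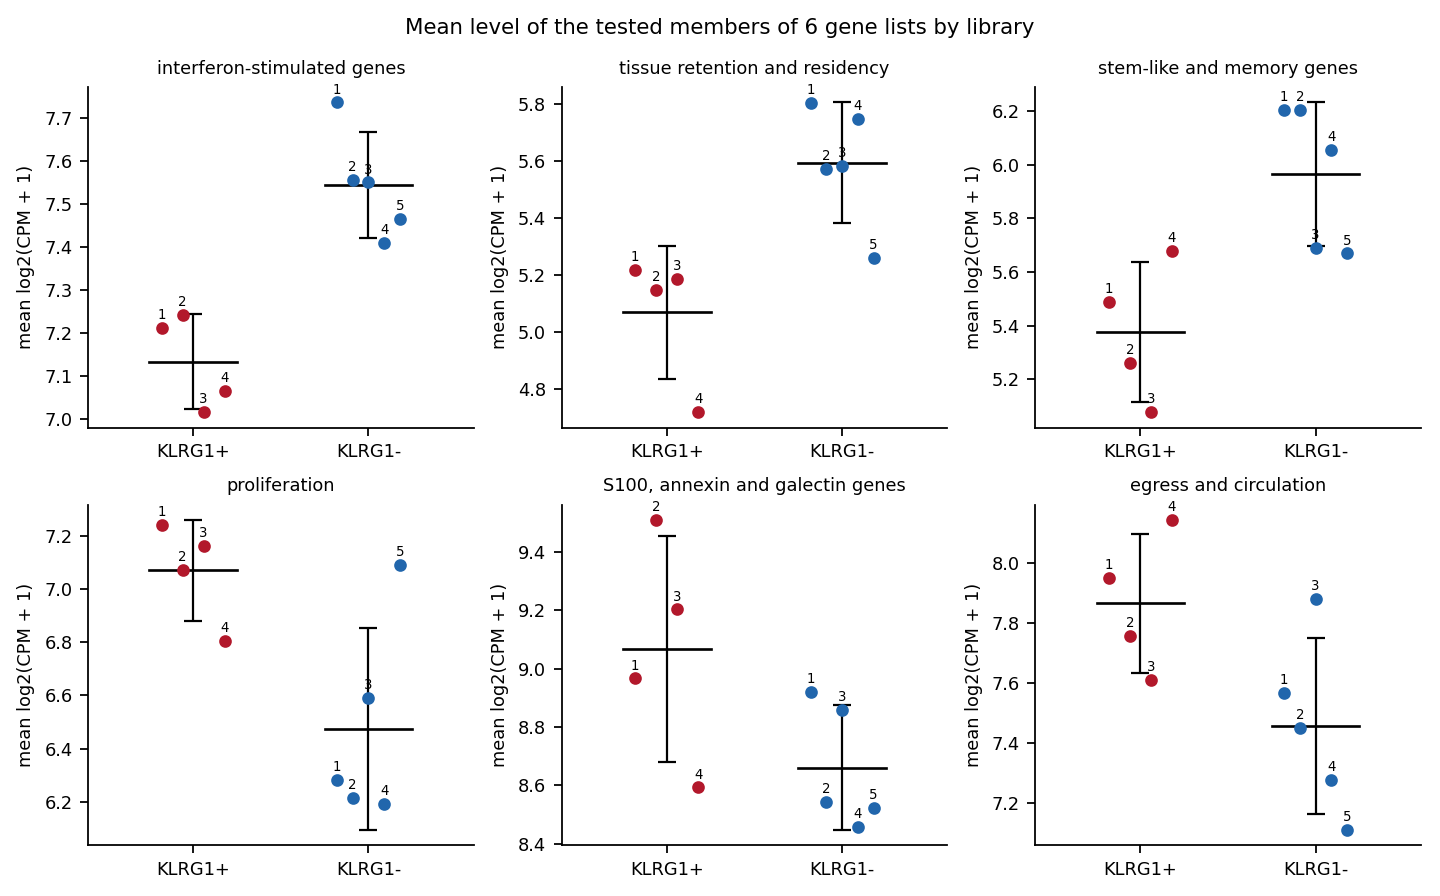
Mean of log2(CPM + 1) over the tested members (vertical axis) of 6 gene lists in each PD1-KLRG1+ (red) and PD1-KLRG1- (blue) library under Tri, with replicate numbers, group means (lines) and SD (bars). Interferon-stimulated genes (7.02 to 7.24 against 7.41 to 7.74) and tissue retention genes (4.72 to 5.22 against 5.26 to 5.80) do not overlap between the groups. They are the only ones of 27 lists without overlap, where random order gives a probability of 0.0159 per list. KLRG1- replicate 5 sits within the KLRG1+ range for proliferation.

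Among regulators, Zeb2 (ENSMUSG00000026872), which acts with T-bet in terminal effector cells, was at 35.4, 16.1, 41.9 and 45.01 CPM against 8.47, 11.04, 9.05, 6.04 and 23.7. Its groups were apart except that KLRG1- replicate 5 lay above KLRG1+ replicate 2 (log2 fold change 1.66 ± 0.56, adjusted p = 0.993, called in 2 of 23 alternatives, between 0.0123 and 1). Tbx21, the gene of T-bet, was at 484, 299, 275 and 526 against 284, 245, 250.3, 328 and 344, and Eomes, its relative, had means of 208 ± 16.0 and 143 ± 36.3 CPM. Of 15 effector transcription factors 12 were positive (median 0.26), 9 of 15 without KLRG1- replicate 5 (median 0.12). Among 10 exhaustion-linked factors 5 were positive; Ikzf2, the gene of Helios, was lower without overlap at 18.7, 32.8, 37.3 and 36.3 CPM against 40.2, 46.9, 51.5, 109 and 129.8, and Tox, the factor of exhausted cells, was at 36.1, 31.7, 58.2 and 21.5 against 64.5, 55.7, 66.4, 29.96 and 84.5 with overlap.

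S100, annexin and galectin genes, which encode calcium-binding and membrane proteins of activated and migrating T cells, were positive in 15 of 16 (median 0.42), and in 15 of 16 without KLRG1- replicate 5 (median 0.41), but in 10 of 16 in the libraries with the name suffix (median 0.066). Each of the 16 overlapped between the groups. Lgals1, galectin-1, was at 1219, 2126, 1463 and 828 CPM against 1079, 733, 1117, 689.5 and 662, and S100a4 at 365, 811, 527 and 275 against 482, 236, 469, 200.1 and 217. Within the KLRG1+ group both were highest in replicate 2 and lowest in replicate 4. Among cytoskeletal genes, Flna, filamin A, a crosslinker of actin, was at 1092, 715, 669 and 1284 CPM against 421, 656, 501, 513 and 513 (log2 fold change 0.87 ± 0.22, adjusted p = 0.741), and Zyx, zyxin of focal adhesions, at 993, 935, 835 and 991 against 807, 813, 800, 741 and 785. Dusp5, a phosphatase of nuclear ERK, was at 270.4, 258, 304 and 249.6 CPM against 176, 163, 145, 159 and 153, and Osbpl3, an oxysterol-binding protein, at 226, 174, 263 and 276 against 114, 132, 133, 96.4 and 120.1. Flna, Zyx, Dusp5 and Osbpl3 belong to no list and were chosen after their values were seen.

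Most cytokine and chemokine genes had negative log2 fold changes, and none was called. Of 12 cytokines and death ligands, 10 were negative (median -1.04, and -0.33 without KLRG1- replicate 5), and none separated the groups. Ltb, lymphotoxin beta, was at 573, 830.2, 623 and 466 CPM against 942, 797, 832, 945 and 1029, where KLRG1+ replicate 2 reached the KLRG1- range. Ifng, interferon gamma, had means of 169 ± 69.2 and 218 ± 160 CPM, and Fasl, the death ligand for FAS, 592 ± 99.0 and 515 ± 124. Of 8 chemokines 6 were negative (median -1.14, -0.61 without KLRG1- replicate 5 and -0.44 in libraries without the name suffix). Xcl1 and Cxcl16 were lower without overlap, where 0.882% of all genes tested lay below. Cxcl16 was at most 16.4 CPM in any of the 9 libraries. Nrp1, the semaphorin co-receptor neuropilin-1, was chosen after its values were seen: it was at 4.85, 0, 0 and 0 CPM against 12.1, 12.3, 42.9, 18.8 and 67.4 (log2 fold change -4.60 ± 1.07, adjusted p = 0.58, called in 3 of 23 alternatives, between 3.97e-08 and 1). Counts of Nrp1 were present in all KLRG1- libraries and in 1 of 4 KLRG1+ libraries.

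Most surface receptors overlapped between the gates. Of 14 inhibitory receptors 8 were positive (median 0.01, of the other sign in 14 of 23 alternatives and -0.12 without KLRG1- replicate 5), and Havcr2, the gene of TIM-3, was at 157, 78.4, 119.5 and 86.1 CPM against 86.3, 68.4, 100.3, 64.9 and 69.6 with overlap. Of 18 killer lectin-like receptors and adaptors tested, 7 were positive (median -0.10) and none separated the groups. The sign of that median turned without KLRG1- replicate 5 (11 of 18 positive, median 0.11) and was the other one in 7 of 23 alternatives. Klrk1, which encodes NKG2D, had means of 778 ± 96.5 and 942 ± 100.1 CPM, and Klrd1, which encodes CD94, 321 ± 86.7 and 316 ± 89.3. Tnfrsf9, the gene of the costimulatory receptor 4-1BB, was higher without overlap at 308, 347, 293 and 291 CPM against 214, 218, 161, 229 and 222, while 5 of 13 costimulatory receptors were positive, and 7 of 13 without KLRG1- replicate 5. Cytokine receptors (9 of 19 positive, median -0.03), T cell receptor signalling genes (6 of 18, median -0.03), glycolysis (14 of 16, median 0.11), oxidative phosphorylation (13 of 20, median 0.03, of the other sign in 11 of 23 alternatives) and BCL2 family genes (10 of 16, median 0.16) had no member with separated groups. Without KLRG1- replicate 5, 9 of 16 glycolysis genes (median 0.015), 5 of 19 cytokine receptors (median -0.17) and 9 of 18 T cell receptor signalling genes (median -0.01) were positive. In libraries without the name suffix 8 of 16 glycolysis genes were positive (median 0.0048). Of 18 immediate-early genes 5 were positive (median -0.16), and Egr2, a factor induced by antigen receptor signalling, was at 10.4, 10.4, 3.21 and 6.68 CPM against 13.7, 19.2, 21.03, 39.9 and 78.02 without overlap. Ccr7 and Cxcr6 lay below without overlap among 15 chemokine receptors, where 0.882% of all genes tested lay below. Of these 15, 7 were positive (median -0.32). That median was -0.09 without KLRG1- replicate 5, 0 in either name series alone, and of the other sign in 5 of 23 alternatives. Of 14 heat shock and dissociation genes 3 were positive (median -0.20) with none separated.

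**Figure D3:**
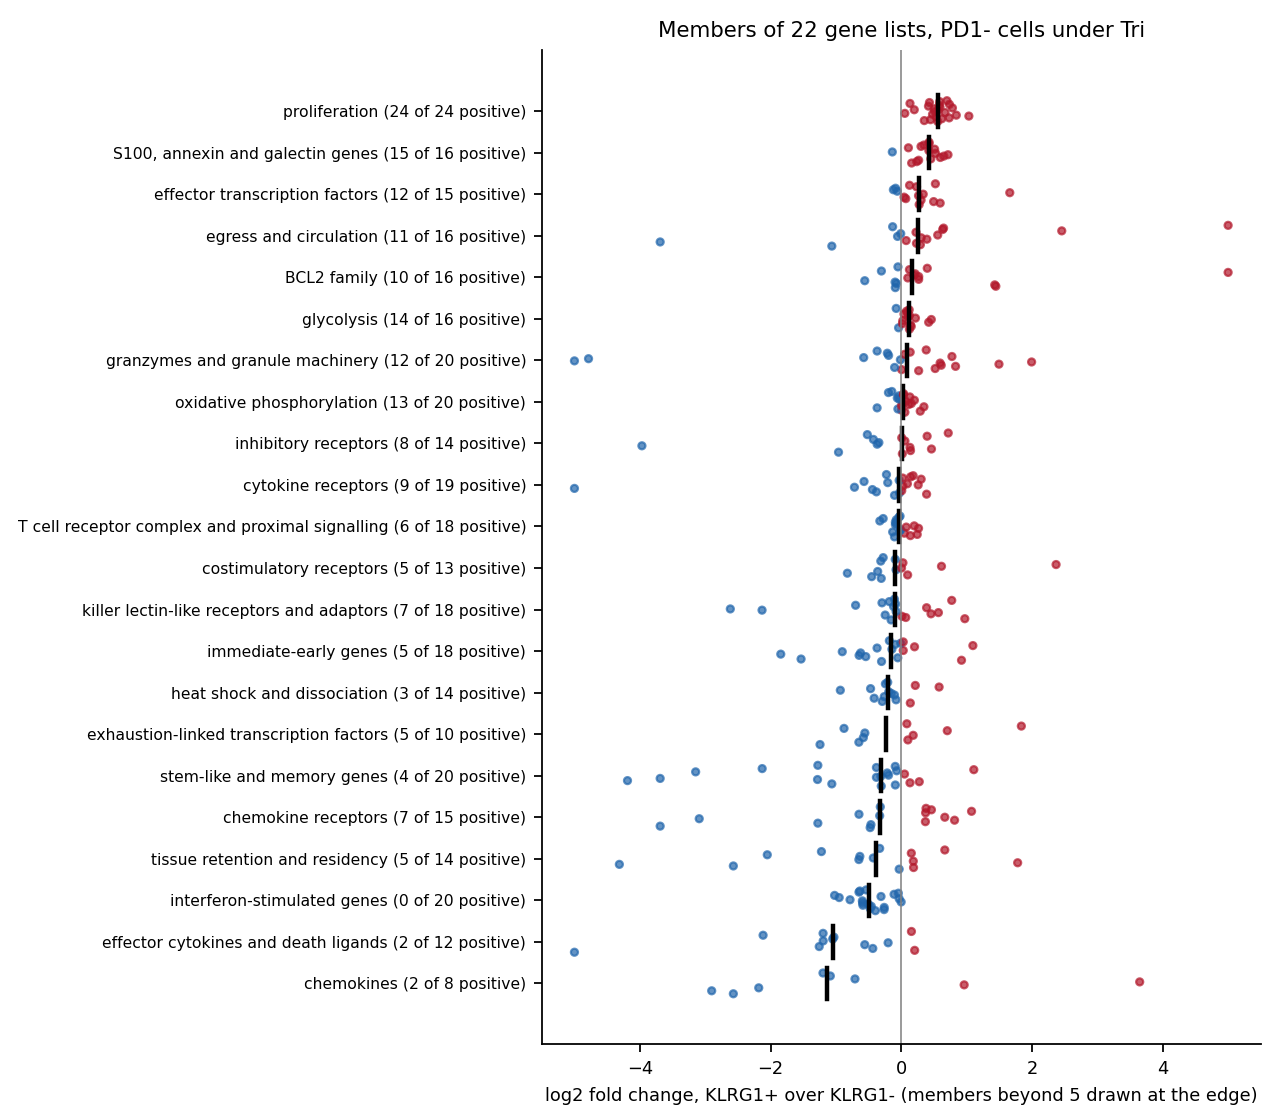
Log2 fold change (horizontal axis, KLRG1+ over KLRG1-) of each tested member of 22 gene lists in PD1- cells under Tri, red when positive and blue when negative, with the list median as a black bar; members beyond 5 are drawn at the edge. The 24 proliferation genes all lie right of 0 and all 20 interferon-stimulated genes left of it, while no single gene passed the adjusted threshold.

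Some markers of other cells differed with the gate. The summed level of 17 tumour and stroma markers was 36.5 to 102 CPM in KLRG1+ and 136 to 213 CPM in KLRG1- libraries (2-sided exact permutation p = 0.0159, the smallest that 4 against 5 allow, and 0.148 after adjustment over 14 library measures). Cdh1, which is also in the retention list, made up the largest part, and without it the sums were 0.931 to 51.8 and 43.9 to 99.7 CPM and overlapped. The keratins Krt8 and Krt19 and the endothelial receptor Kdr were at 0 in all 9 libraries, and Spp1, osteopontin, was at 0.693, 0, 0 and 0 CPM against 7.25, 4.29, 9.50, 3.71 and 32.8. Of 11 tumour and stroma markers tested in edgeR, 3 had a positive log2 fold change and 8 a negative one. At an unadjusted p under 0.05, 1 was higher and 3 were lower. Without a count filter, edgeR called the collagen gene Col1a1 higher (log2 fold change 4.65, adjusted p = 0.000358) and Spp1 lower (-5.37, 6.66e-24). The sum of 20 myeloid markers was 233 to 307 CPM in KLRG1+ and 303 to 692 in KLRG1- libraries (exact permutation p = 0.0317, adjusted 0.148), led by Cd74, Cd68 and Apoe; Adgre1 and S100a9 were at 0 in all 9, Itgam was above and H2-Eb1 below without overlap. The lower total counts of the KLRG1+ libraries had the same p (0.0317, adjusted 0.148). The sum of 10 B cell markers was 7.94 to 14.8 and 0 to 25.6 CPM with Pax5 at 0 in all 9 libraries, that of 10 CD4 and regulatory T cell markers 158 to 265 and 229 to 304, and that of 14 NK and innate-like markers 275 to 340.2 and 180 to 321 with Ncr1, which defines NK cells, at 0. The part of other cells, depth or KLRG1- replicate 5 in the gene differences above was not tested beyond the values given, and in sorted bulk RNA fewer cells of a type and less RNA per cell cannot be told apart.

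The evenness of T cell receptor segments differed between the gates by less than the spread between libraries. The effective number of Trbv segments, the exponential of the Shannon entropy of their counts, was 16.6 ± 0.528 in KLRG1+ and 16.2 ± 0.798 in KLRG1- libraries (exact permutation p = 0.333, adjusted 0.778), and that of Trav segments was 59.2 ± 4.23 and 58.5 ± 8.89 (p = 1, adjusted 1). Without KLRG1- replicate 5, at 42.8, the KLRG1- mean for Trav was 62.5 ± 1.42, and the difference turned from 0.696 to -3.24 (exact permutation p = 0.229). The leading Trbv segment was Trbv12-2 in KLRG1+ replicates 1 and 4 and in 4 of 5 KLRG1- libraries, Trbv19 in KLRG1+ replicates 2 and 3, and Trbv16 in KLRG1- replicate 2, at 10.0% to 15.3% of Trbv counts. Some Trav segments had identical shares in all 9 libraries (Trav7d-5 and Trav7n-5, Trav5d-4 and Trav5n-4). The effective number of Trav segments counts such pairs as separate segments, and how reads were assigned to them is not known. Segments are not clonotypes, so the size of single clones is not given by these values.

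The same gate was compared in Tri PD1+ cells and in Iso PD1- cells, which share no library with the 9. In Tri PD1+ cells 4 genes rose (Klrg1, Ccl5, Gzmb and Gzmk) and 4 fell, 0.0285% of genes tested in each direction, and 0 to 8 were called when 1 library was left out. In Iso PD1- cells 174 rose (1.24%) and 1044 fell (7.43%), in a group where replicate 3 of PD1-KLRG1+ held 93198 counts. Groups did not overlap for 71 genes above (0.505%) and 269 below (1.91%) in Tri PD1+ cells, and for 145 (1.03%) and 2275 (16.2%) in Iso PD1- cells. Of the 129 genes above in Tri PD1- cells, 9 were also above in Tri PD1+ cells (6.98% of the first list, 12.7% of the second) and 11 in Iso PD1- cells (8.53% and 7.59%). Of the 124 below, 4 were also below in Tri PD1+ cells (3.23% and 1.49%) and 29 in Iso PD1- cells (23.4% and 1.27%), while 9 of the 129 above were below in Iso PD1- cells. Over 4416 genes whose mean reached 50 CPM, log2 fold changes of Tri PD1- cells correlated weakly with those of Tri PD1+ (Pearson r = 0.154, Spearman rho = 0.157) and Iso PD1- cells (0.211 and 0.223), across genes that are not independent replicates.

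Side by side, granzyme B was higher in KLRG1+ cells in every setting, with log2 fold changes of 0.78 ± 0.19 in Tri PD1-, 0.98 ± 0.18 in Tri PD1+ (adjusted p = 0.0217) and 2.56 ± 0.21 in Iso PD1- cells (adjusted p = 2.85e-08). Proliferation genes were mostly positive in all 3 comparisons, 24, 23 and 23 of 24, with medians of 0.56, 0.73 and 0.96. Interferon-stimulated genes were positive in 0, 8 and 5 of 20, with medians of -0.49, -0.07 and -0.22, where the medians of all genes tested were -0.01, -0.07 and -0.52. Stem-like and memory genes were positive in 4, 9 and 0 of 20 (medians -0.31, -0.05 and -2.30). S1pr5 had no count in either Tri PD1+ group, and its mean in Iso cells was 176 CPM in KLRG1+ and 9.42 in KLRG1-. Zeb2 and Osbpl3 had log2 fold changes of -0.15 ± 0.52 and -0.18 ± 0.35 in Tri PD1+ cells, against 1.66 ± 0.56 and 1.01 ± 0.37 in Tri PD1- cells.

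The differences between settings were tested as interactions. With PD1 under Tri no gene was called (0% more positive in PD1- cells, 0% more negative). Of 14059 genes 638 had an unadjusted p under 0.05, less than the share of 0.05 that no difference would give. The smallest adjusted p was 0.481, so S1pr5, Zeb2 and Osbpl3 were not shown to depend on PD1 (adjusted p = 1, 0.873 and 0.916 in edgeR's test). DESeq2 called 205 and limma-voom 14. With treatment in PD1- cells 479 genes were more positive under Tri (3.41%) and 26 more negative (0.185%) in edgeR. The number called depended strongly on the fit. DESeq2 called 1306, edgeR with the replicate block 277, and limma-voom with sample weights only 1. Gzmb was among the 26 genes more negative in edgeR (-1.78 ± 0.27 on the log2 scale, adjusted p = 0.000325). It was at 2211 to 4532 CPM in Iso KLRG1+ and 523 to 567 in Iso KLRG1- libraries. The KLRG1 gate thus separated granzyme B levels more widely under Iso, where KLRG1- cells were low, than under Tri. Prf1 and Gzmk were also more negative under Tri (-1.59 ± 0.40, adjusted p = 0.0234, and -1.78 ± 0.44, adjusted p = 0.0222), as were Atp6v0a2, a subunit of the vacuolar proton pump, and Plk3, a stress-responsive kinase.

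Among the genes more positive under Tri, Srf, a factor of growth and cytoskeletal genes, Ctla4, an inhibitory receptor, and Id3 were at 0 in all 4 Iso KLRG1+ libraries, and Baz2a, a chromatin remodelling subunit, had none in 2 of them. The Iso KLRG1- libraries held 32.8 to 81.0 CPM of Srf, 10.6 to 45.5 of Ctla4 and 91.4 to 205 of Id3. Cd200r1, Klri2, Ifngr2 and Gzmf were also at 0 in all 4 Iso KLRG1+ libraries, which held 6991521, 7171417, 93198 and 19929546 counts. The share of well-expressed genes without a count was measured only in the 9 Tri PD1- libraries. The part of poor detection in these zeros, and so in this interaction, was not tested. In Tri PD1- cells Ctla4 was at 56.1, 57.1, 45.5 and 43.5 CPM in KLRG1+ and 60.1, 31.5, 85.5, 51.3 and 15 in KLRG1- libraries, with overlap. Il7r, at 0 to 23.9 CPM in Iso KLRG1+ and 229 to 302 in Iso KLRG1- libraries, had a log2 fold change of -4.35 ± 0.73 there and -0.38 ± 0.59 in Tri PD1- cells (interaction 3.97 ± 0.89, adjusted p = 0.0118).

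**Figure D4:**
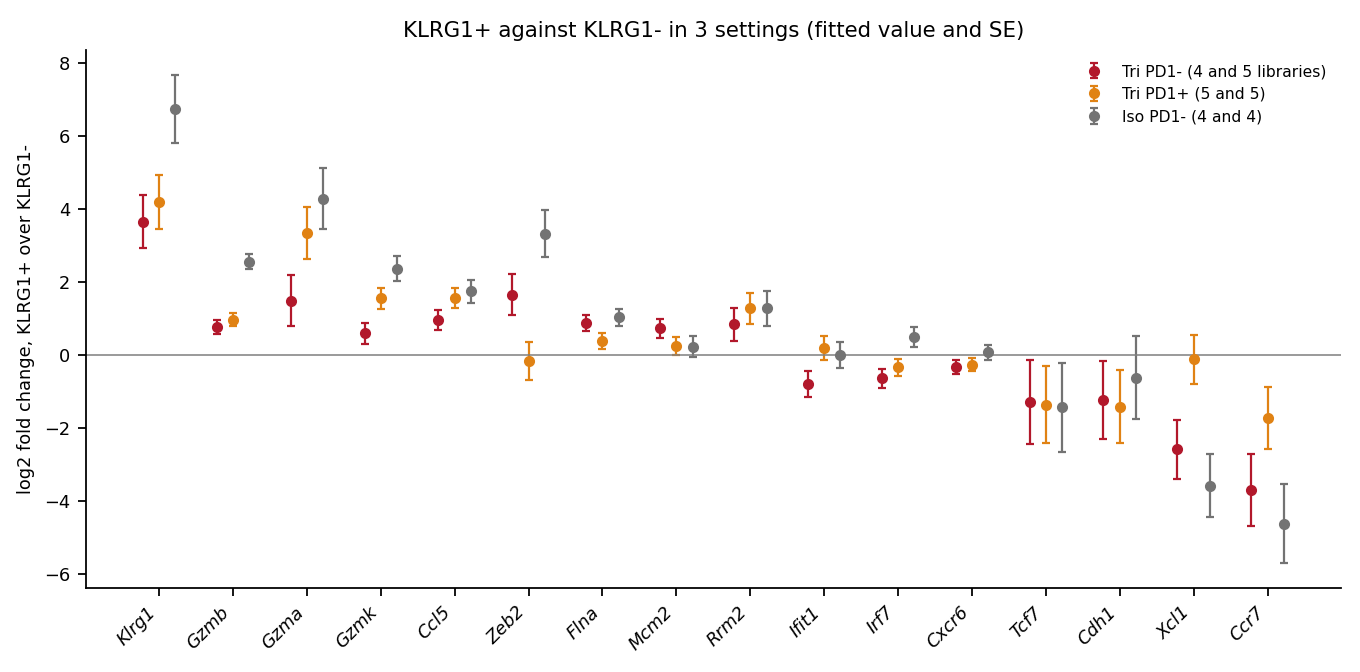
Fitted log2 fold change of KLRG1+ over KLRG1- (vertical axis) with SE bars for 16 genes in Tri PD1- (red), Tri PD1+ (orange) and Iso PD1- cells (grey). Gzmb, Gzma, Gzmk and Ccl5 are positive in all 3, and the value for Gzmb is smaller in Tri PD1- (0.78) than in Iso PD1- cells (2.56).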

How the data were processed

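RNA sequencing libraries of sorted CD8+ T cells from MC38 tumours were analysed from 1 table of raw counts per gene that the authors deposited (47729 Ensembl mouse gene IDs, 27 libraries). The sources used here do not give the aligner, counting tool or genome build. DESeq2 1.26.0 is named per the submitters' processing notes. Symbols were matched for 47224 IDs and 505 IDs have none. Counts were fitted with edgeR 4.0.16 (R 4.3.3) after TMM scaling: genes were kept by filterByExpr with a minimum count of 10 (14059 genes), and a robust quasi-likelihood model held the group means and the name series of the libraries, over all 27 libraries, which share 1 estimate of the spread. P-values were adjusted by Benjamini-Hochberg over all genes tested and called under 0.05. The SE of a log2 fold change was derived from its F statistic. Scripts were tested on simulated data.

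The groups were taken from the sample titles. Exact permutation tests (2-sided) were used for the measures per library. Alternatives were median-ratio scaling, other count filters, DESeq2 1.42.0, limma-voom (limma 3.58.1), other sets of libraries and covariates, and leaving out each library. The members and gene lists were chosen with earlier results of these data known. Named genes were the sorting and lineage genes, the largest called changes without overlap (none was called in the main comparison), the member of each list with the smallest p, and the leading genes of each interaction. Other genes named were chosen after their values were seen. The depth of 8586184 to 16709139 counts per library limits the precision of genes with few counts. Some genes are not reported here.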

Additional observations from a re-analysis of the deposited data

Results flagged for a closer look

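In 190 groups of values examined, 22 values lay far from the rest of their group by Dixon's ratio, where chance flags about 1 in 20. That rate holds for independent groups of normal values. The groups here share libraries, several hold counts in 1 library only, and some genes were chosen after their values were seen. KLRG1- replicate 5 held 10 of them. In that library Zeb2 was at 23.74 CPM (6.035 to 11.04 in the other KLRG1- libraries), Xcl1 at 263.7, Spp1 at 32.84, Plk3 at 192.8, Cxcl16 at 16.36, Tcf7 at 515.6, Top2a at 296.1 and Itgae at 134.6 CPM, each above the rest. In the same library 3.429% of well-expressed genes had no count, against at most 0.1004% in the other KLRG1- libraries, and the effective number of Trav segments was 42.8 against 61.26 to 64.49. KLRG1- replicate 3 was high in Ccr7 (122.5 CPM), Cd200r1 (18.11) and S1pr5 (7.278) and low in Tnfrsf9 (161.1). In the KLRG1+ group, replicate 1 was the 1 library with counts of Cd200r1 (1.3 CPM), Spp1 (0.6931) and Nrp1 (4.852), replicate 2 that with Bcl2l14 (6.411), and replicate 4 was high in Klri2 (5.871), Nsg2 (8.058) and Gzmf (2.648). Bank1 was at 1.795 CPM in KLRG1- replicate 1 and at 0 in the other KLRG1- libraries.

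For 12 named genes the KLRG1 difference in PD1- cells differed between Tri and Iso by edgeR's interaction test. On the log2 scale the difference was more negative under Tri for Gzmb (-1.781, adjusted p = 0.000325), Atp6v0a2 (-1.878, 0.0062), Plk3 (-3.091, 0.00852), Nrp1 (-5.912, 0.0184), Prf1 (-1.585, 0.0234) and Gzmk (-1.777, 0.0222). It was more positive for Srf (13.07, adjusted p = 1.93e-06), Ctla4 (10.99, 8.99e-06), Baz2a (10.21, 8.99e-06), Id3 (11.7, 0.00315), Il7r (3.966, 0.0118) and Dapl1 (8.339, 0.0253). Values for genes with libraries at 0 depend on the prior count of the fit and are no estimate of size. With limma-voom and sample weights 1 gene was called in this interaction.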

How the results depend on the processing

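In Tri PD1- cells, where no gene was called, 39 genes were called without a count filter, 201 with DESeq2, 30 with limma-voom, 1 without the 4 Iso PD1-KLRG1+ libraries, 3 with the 9 libraries alone, 4 with the 19 Tri libraries and 4 with these and the replicate block; the last 2 fits were chosen after seeing the data. Leaving out 1 library gave 0 to 1 (Nrp1 without KLRG1+ replicate 1, S1pr5 without KLRG1- replicate 3, Nrn1 without KLRG1- replicate 4). In Tri PD1+ cells (8 called) the counts were 50 without a filter, 5 without the name series, 5 with the replicate block, 220 with DESeq2, 69 with limma-voom, and 41 and 0 in libraries without and with the name suffix, and 0 to 8 with 1 library left out. In Iso PD1- cells (1218) they were 2352 with DESeq2, 15 with limma-voom and 1994 in libraries with the suffix. For the interaction with PD1 (0) they were 46 without a filter, 205 with DESeq2 and 14 with limma-voom, and 0 to 1 with 1 library left out. For the interaction with treatment (505) they were 277 with the replicate block, 1306 with DESeq2, 1 with limma-voom, 298 and 1662 without and with the suffix, and 318 to 866 with 1 library left out. Genes without overlap, 129 above and 124 below, numbered 185 to 326 and 169 to 248 with 1 library left out, where fewer libraries overlap less often by construction. The cause of the other shifts was not tested.

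Deviations from the group mean correlated between same-numbered libraries at -0.088, -0.202, 0.0815 and 0.378 for replicates 1 to 4, over 7364 genes. The highest correlations with another number were 0.156, 0.246, 0.0916 and 0.235, so only replicate 4 was closest to its own number. Replicate 4 is also the only one of these with the name suffix in both groups. A shared number and a shared name series cannot be told apart there. Within replicates 1 to 3 the same-number values were -0.0998, -0.232 and 0.0104, against highest others of 0.294, 0.148 and 0.00871. Equal numbers were not taken to pair libraries, since the labels do not state it. The replicate block left the main comparison at 0 called genes.

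Of 1852 recomputed values of 81 named genes, 36 changed sign. The log2 fold change of Cd3e became 0.014 without the name series, 0.024 with the replicate block, 0.10 without the suffix and 0.029 in the 19 Tri libraries with the block (-0.18 to 0.090 with 1 library left out); the log2 fold change of Ptprc was -0.023 without the suffix (-0.022 to 0.17 with 1 library left out). The log2 fold change of Klri2 was 1.28 with limma-voom and 1.17 in the 9 libraries with the block, and that of Atp5o -0.0082 with the suffix; the log2 fold change of Gapdh was -0.16 with the suffix (-0.032 to 0.21 with 1 library left out). For the log2 fold change of Ctla4 the values were -0.020 without a filter, -0.015 with the block, -6.61e-05 with DESeq2, -0.0088 with limma-voom, -0.11 in the 9 libraries with the block, -0.18 without the suffix and -0.011 in the 19 with the block (-0.19 to 0.23 with 1 library left out). For the log2 fold change of Atp6v0a2 they were -0.0011 with the block, -0.053 in the 9 libraries with it and -0.093 without the suffix (-0.12 to 0.25 with 1 library left out). With the suffix, the log2 fold change of Top2a was -0.088 and the log2 fold change of Mki67 was -0.63 (-0.084 to 0.38 with 1 library left out).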
